A study of Mus musculus with 8 samples.

Results

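The 8 libraries of this study carry a number in their titles, and that number divides them into 4 low-numbered libraries (X1, X2, X5 and X6) and 4 high-numbered libraries (X7, X8, X40 and X100). The 4 low-numbered libraries, out of 8 in all, are described here against the other 4 with the group held constant. All libraries come from bone marrow of leukaemic mice that had received B-lineage acute lymphoblastic leukaemia (B-ALL) cells carrying BCR-ABL1, the fusion tyrosine kinase of Philadelphia-chromosome leukaemia. In KO_LPS the transplanted cells were Aid KO and the treatment was LPS, the bacterial lipopolysaccharide sensed by Toll-like receptor 4. Its libraries were X2 and X5 (low-numbered) and X8 (high-numbered). In WT_LPS the cells were Aid WT with LPS, with X6 low-numbered and X40 and X100 high-numbered. In WT_PBS the cells were Aid WT with the vehicle PBS, with X1 low-numbered and X7 high-numbered. The labels give neither the meaning of the number nor the strain or age of the mice, nor the time or route of treatment. Nor do they state if a group's mice received cells from separate cultures, so p-values measure the spread between these libraries only.

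The libraries were chosen by title number, and the division was selected on measured FPKM of these same libraries, since it was proposed with those values known. It coincides with the order of the libraries on the leading axis of variation. Differences between low- and high-numbered libraries are therefore given as a description, with no p-value for any gene. Tests are given for the differences between groups, with and without the number class in the fit, and for whether the class difference itself varies from group to group. At the border of the rule stand X6, the highest low number, and X7, the lowest high number, and they scored 17.4 and -35.1 on the first principal component. The libraries of the 2 classes that lay nearest to each other on that component were X1, at -1.30, and X100, at -14.2.

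Values were FPKM (fragments mapped to a gene, divided by its length and by the library's mapped fragments), and read depth is unknown. The FPKM of a library summed to 632053 to 700238 in low-numbered and to 606576 to 636907 in high-numbered libraries, and the median over tested genes was 9.99 to 11.7 and 11.5 to 12.7 FPKM. Markers of the labelled cell type, B lymphocyte, were present in every library. Cd79a, a B-cell receptor signalling chain, was at 877 to 1086 FPKM in low-numbered and 844 to 941 FPKM in high-numbered libraries. The marrow held other cells too: the neutrophil calprotectin gene S100a8 was at 2450 to 11250 FPKM in low-numbered and 3469 to 6153 FPKM in high-numbered libraries. The T-cell chain Cd3e reached at most 0.88 FPKM, the NK receptor Ncr1 0.29 FPKM and the collagen gene Col1a1 1.34 FPKM in any library. In such bulk RNA, fewer cells of a type and less RNA per cell cannot be told apart.

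By way of background, a dividing B-lineage leukaemia cell spends much of its energy on making ribosomes and membranes. The transcription factor Myc drives nucleolar genes that build ribosomes, and the transcription factor SREBP2 drives the enzymes of cholesterol synthesis together with the CCAAT-binding factor NF-Y. In the opposite state, when growth signals are low, FoxO factors and p53 raise inhibitors of growth such as sestrins and cell-cycle inhibitors. The genes below are ordered by these roles, followed by the blood lineages of the marrow.

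Promoter sequences are shown for the cholesterol enzymes, because these genes had the lowest median of all lists, and the CCAAT box is a known element of their promoters. The windows come from RefSeq (GRCm38), run 5′ to 3′ on the gene's strand, and lie upstream of the transcription start. Capitals mark the letters CCAAT or their reverse complement ATTGG. The 4 enzymes below, chosen after their values were seen, act in consecutive or nearby steps from HMG-CoA synthesis to sterol demethylation.
Hmgcs1 (chr13:119690281-119690340, plus strand): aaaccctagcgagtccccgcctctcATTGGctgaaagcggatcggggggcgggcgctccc
Idi1 (chr13:8885546-8885605, plus strand): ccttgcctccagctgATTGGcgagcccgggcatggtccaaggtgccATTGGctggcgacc
Lss (chr10:76531518-76531577, plus strand): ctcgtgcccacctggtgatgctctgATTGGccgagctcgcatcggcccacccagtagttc
Msmo1 (chr8:64733599-64733658, minus strand): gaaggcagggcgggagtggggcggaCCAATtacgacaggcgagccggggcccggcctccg
The letters CCAAT, on either strand, were found between 250 bases before and 50 bases after the start of 12 of the 13 cholesterol genes with a promoter in the table (92.3%). The same was true of 43.9% of the 9266 tested genes with a promoter and of 37.4% of all 32851 promoters. The core TCACNCCAC of a sterol response element stood in 1 of the 13, Hmgcs1, and in 1.41% of tested genes. The CCAAT share was also above that of tested genes in the p53 list (62.5%), whose median lay on the higher side, and in the synthetases (53.85%), and it was 45.3% among genes called lower and 44.5% among genes called higher. The E-box CACGTG, bound by Myc, was found in 6 of 21 ribosome biogenesis genes (28.6%), against 11.9% of tested genes. It also stood in 5 of 16 promoters of the p53 list (31.3%) and in 4 of 13 of the synthetases (30.8%), lists that lay on opposite sides. Among genes called lower it stood in 14.1%, and among genes called higher in 10.9%. Its letters are shown here for Nop2, a ribosomal RNA methyltransferase gene, with the E-box in capitals.
Nop2 (chr6:125131798-125131857, plus strand): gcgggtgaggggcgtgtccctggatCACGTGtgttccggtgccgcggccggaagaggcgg
The motifs were searched separately on both strands and none of them contains another, and a match describes letters only.

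The number class accompanied the largest part of the variation among the 8 libraries. The first principal component of log2(FPKM + 1) held 60.5% of the variance, and its scores were -1.30, 34.5, 50.02 and 17.4 in the low-numbered X1, X2, X5 and X6, against -35.1, -21.1, -30.1 and -14.2 in the high-numbered X7, X8, X40 and X100. Within each group the low-numbered libraries scored above the high-numbered ones. Over all 12061 tested genes, the group accounted for 32.2% of the sum of squares, the number class after the group for 39.6%, and 28.2% was left. Libraries of the same class from other groups correlated across genes at 0.967 to 0.991, and libraries of the same group from the other class at 0.950 to 0.977, where genes are not independent points.

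**Figure D1:**
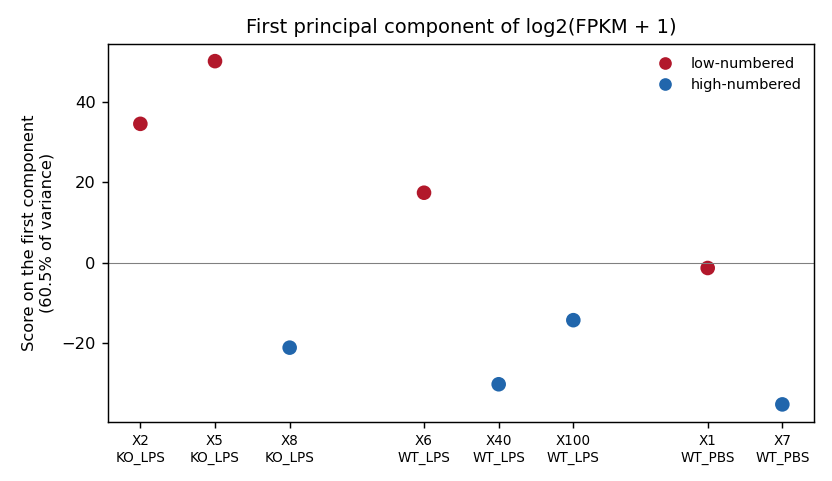
Score of each library on the first principal component of log2(FPKM + 1), which held 60.5% of the variance. Within KO_LPS, WT_LPS and WT_PBS every low-numbered library lies above every high-numbered one, and X1 (-1.30) and X100 (-14.2) are the nearest pair across the classes.

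In the fit of number class with group, 3404 of 12061 genes (28.2%) had an adjusted p under 0.05 (limma), and such a gene is said to be called. The division was selected on these values, so a call here marks only that a gene follows the division, and the counts of calls below describe the lists and support nothing. Of these, 839 were higher in low-numbered libraries (6.96% of genes) and 2565 were lower (21.3%). The median gene lay 0.12 lower on the log2 scale in low-numbered libraries, and this shift depended on scaling: it was 0.02 after median-ratio scaling and 0.01 after quantile normalization. Higher genes made up 24.6% of calls without rescaling, 50.1% after median-ratio scaling, 45.9% after quantile normalization and 50.5% after removal of trends with GC content and length. Gene lists are therefore read below against the median of all genes, and their calls against the share of all genes called. After median-ratio scaling 1606 genes were called higher and 1600 lower. Without X8, the only high-numbered KO_LPS library, 670 genes were called, 530 of them lower. Without X40 it was 2041, with 1577 lower, and without X6 2161, with 1658 lower.

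The 3 groups share no library, so each gives its own low-minus-high difference. Across genes, these differences correlated at 0.557 between KO_LPS and WT_LPS, 0.630 between KO_LPS and WT_PBS, and 0.492 between WT_LPS and WT_PBS, given as descriptions over 12061 genes. Of all genes, 7068 (58.6%) had the same sign in the 3 groups. Low-numbered libraries lay wholly above the high-numbered ones within every group for 1802 genes (14.9%) and wholly below for 4067 (33.7%), together 48.7%. The SD of the differences across genes was 0.58 in KO_LPS, 0.48 in WT_LPS and 0.43 in WT_PBS. The classes were not uniform inside. Among the 2565 genes called lower, X1 was the low-numbered library closest to the other class in 1948 (75.9%), and X100 the closest high-numbered one in 1860 (72.5%).

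Of the 12061 genes, 84 were at least 2-fold higher and 334 at least 2-fold lower in low-numbered libraries on the log2(FPKM + 1) scale. Values are listed from here on in the order X1, X2, X5, X6 for low-numbered and X7, X8, X40, X100 for high-numbered libraries. Pdf, which encodes the mitochondrial peptide deformylase (chromosome 8, 107046289 to 107048614, GRCm38), had the lowest named difference, -3.50 ± 0.36 (SE). It was listed at 0, 0.71, 0 and 0 FPKM in low-numbered libraries, against 16.0, 13.2, 14.5 and 3.86 FPKM in high-numbered libraries. The values do not overlap, and X100 is the lowest of the high-numbered ones.

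Several regulators of blood cells were among the lowest genes. Nfe2l2, which encodes the antioxidant response factor NRF2, was at 12.7, 4.78, 6.20 and 5.19 FPKM in low-numbered and 34.6, 33.7, 33.6 and 23.6 FPKM in high-numbered libraries, a difference of -2.07 ± 0.20 on the log2 scale. Bcl11a, a zinc finger repressor needed in early B cells and known for silencing fetal globin, was at 23.5, 10.2, 7.33 and 10.2 FPKM in low-numbered and 53.3, 41.9, 44.4 and 31.1 FPKM in high-numbered libraries (-1.74 ± 0.19). Gfi1b, a transcriptional repressor needed for erythroid and megakaryocyte development, was at 3.93, 0.74, 0.61 and 1.63 FPKM in low-numbered and 8.01, 8.23, 7.85 and 7.28 FPKM in high-numbered libraries (-1.75 ± 0.24). In all 3 genes X1 was the highest low-numbered library and X100 the lowest high-numbered one, and the classes did not overlap. Tifab, a TIFA-related inhibitor of TRAF6 signalling, showed the same order at 39.9, 12.4, 8.58 and 16.4 FPKM in low-numbered and 115, 104, 95.7 and 71.95 FPKM in high-numbered libraries (-2.40 ± 0.26). The other lowest genes by the rule were Nabp1, Fam136a, Gemin4, Cd248, Hyal2 and Tmem254c, with differences of -2.37 to -1.72. Tmem254c, which has near-identical neighbouring copies, was not called: X8 and X40 stood at 0.28 and 0.45 FPKM beside 13.5 FPKM in X7 and 18.6 FPKM in X100.

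The highest genes in low-numbered libraries included a chemokine, the globins and genes of several other functions. Cxcl2, a neutrophil-attracting chemokine induced by LPS, had the highest named difference, 2.40 ± 0.62, and was at 1.85, 9.01, 3.30 and 56.0 FPKM in low-numbered and 1.23, 0.64, 3.71 and 0.67 FPKM in high-numbered libraries. The WT_LPS library X6 alone exceeded 10 FPKM, and X1 and X5 lay below X40. Ypel2, a member of the yippee family, was at 8.70, 8.22, 10.2 and 6.61 FPKM in low-numbered and 2.83, 0.08, 0.05 and 4.39 FPKM in high-numbered libraries (2.15 ± 0.50). Arrdc4, an arrestin-domain gene induced with glucose-responsive factors, was at 3.83, 6.19, 8.72 and 10.04 FPKM in low-numbered and 1.90, 2.61, 1.25 and 1.30 FPKM in high-numbered libraries (1.47 ± 0.25). For Ypel2 and Arrdc4 the classes did not overlap. Epha2, an ephrin receptor kinase, was at 24.7, 31.9, 96.0 and 44.9 FPKM in low-numbered and 8.22, 15.9, 11.7 and 21.6 FPKM in high-numbered libraries (1.56 ± 0.31). Ppp1ccb, Prrg4, Wfikkn1 and Rab11fip5 followed with differences of 1.94 to 1.47. Ppp1ccb is a near copy of a phosphatase subunit gene, so its reads may be shared.

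**Figure D2:**
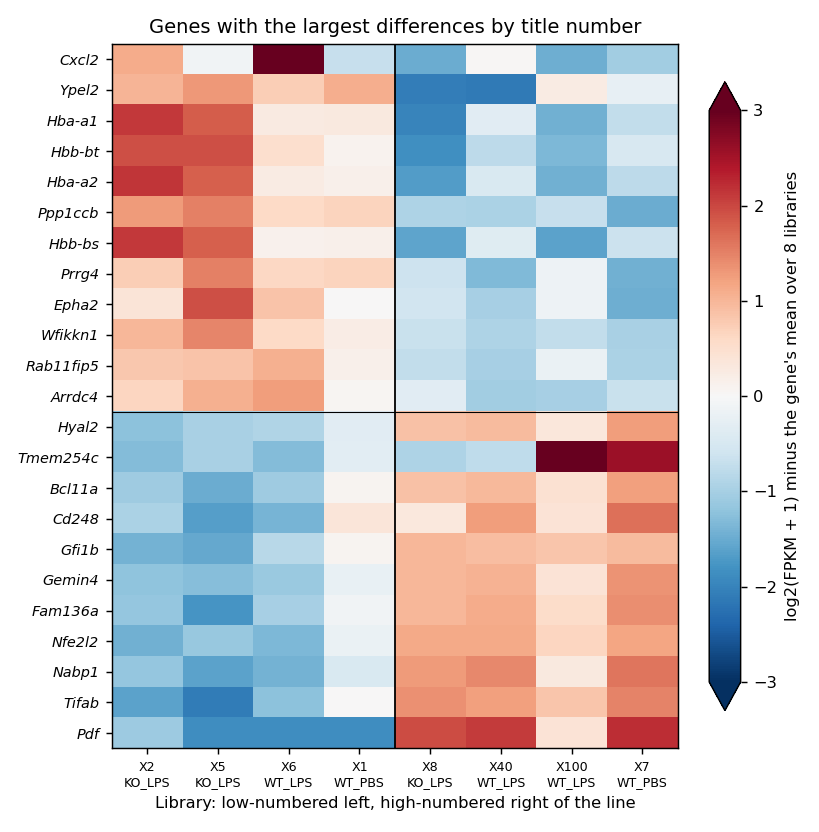
The 12 genes most raised and 11 of the most lowered in low-numbered libraries by the naming rule, as log2(FPKM + 1) minus the gene's mean over 8 libraries, with low-numbered libraries left of the line and high-numbered ones right of it. Colour is cut at 3, X1 is the palest low-numbered column for most lower genes, and the KO_LPS libraries X2 and X5 carry the deepest globin colour.

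Cholesterol synthesis genes stood lowest of all lists. Of 20 tested, 14 were called lower and 0 higher, beside 21.3% and 6.96% of all genes, and the median was -0.82, against -0.12 over all genes. The median difference was -0.91 within KO_LPS, -1.03 within WT_LPS and -0.26 within WT_PBS. Sqle, which encodes the squalene epoxidase that starts the sterol branch, was at 14.0, 15.2, 8.44 and 7.71 FPKM in low-numbered and 20.5, 33.8, 23.7 and 26.8 FPKM in high-numbered libraries (-1.26 ± 0.22). Acat2, an acetyl-CoA acetyltransferase upstream of HMG-CoA, was at 7.89, 7.23, 3.65 and 6.67 FPKM in low-numbered and 16.7, 21.96, 18.1 and 17.3 FPKM in high-numbered libraries (-1.43 ± 0.22). Both genes separated the classes without overlap. Within every group 14 of the 20 genes had their low-numbered libraries wholly below, beside 33.7% of all genes. Msmo1, a sterol demethylase, was at 15.3, 11.06, 8.59 and 6.85 FPKM in low-numbered and 15.7, 27.5, 23.3 and 23.8 FPKM in high-numbered libraries (-1.12 ± 0.25), with X1 close to X7. Insig1, which holds back SREBP2 and was named after its values were seen, was not called, with a difference of 0.20. Without X8, 5 of the 20 were called lower, and without X6 9 were called lower and 1 higher.

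Ribosome biogenesis and Myc targets had the next lowest median, -0.65. Of 27 tested, 18 (66.7%) were called lower, beside 21.3% of all genes, and 0 higher. Within groups the median was -0.61 in KO_LPS, -0.75 in WT_LPS and -0.33 in WT_PBS. Myc itself (chromosome 15, 61985341 to 61990361, GRCm38) was at 104, 47.2, 62.3 and 34.4 FPKM in low-numbered and 217, 137, 164 and 102 FPKM in high-numbered libraries, a difference of -1.45 ± 0.19. X1 lay just above X100, while within each group the low-numbered libraries were lower. Polr1b, a core subunit of RNA polymerase I, was at 12.4, 9.68, 5.51 and 6.56 FPKM in low-numbered and 28.8, 18.6, 26.1 and 16.1 FPKM in high-numbered libraries (-1.31 ± 0.20). Gnl3, the nucleolar protein nucleostemin, was at 55.1, 36.6, 23.2 and 21.4 FPKM in low-numbered and 83.5, 69.06, 77.6 and 54.6 FPKM in high-numbered libraries (-1.17 ± 0.20), with X1 slightly above X100. The list was not uniform. The abundant nucleolar genes Npm1 and Fbl, chosen after their values were seen, overlapped between the classes with differences of 0.01 each. Without X8, 9 of the 27 were called lower.

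Lists chosen after values were seen pointed to the same side for other steps of protein output. Among cytosolic aminoacyl-tRNA synthetases, which load amino acids on tRNA, 13 of 20 (65.0%) were called lower, beside 21.3% of all genes, and 0 higher (median -0.58). The within-group medians were -0.69 in KO_LPS, -0.59 in WT_LPS and -0.48 in WT_PBS. Iars, the isoleucine enzyme, was at 24.02, 17.5, 15.03 and 16.7 FPKM in low-numbered and 40.8, 37.5, 51.3 and 35.05 FPKM in high-numbered libraries (-1.09 ± 0.15), without overlap. Among nuclear pore genes, 14 of 27 (51.9%) were called lower, beside 21.3% of all genes (median -0.35). Without X8, 8 of the synthetases and 2 of the pore genes were called lower, and without X6 8 of the pore genes.

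Folding genes were lower in part, and few glycolytic genes were. Of 24 unfolded protein response genes, 9 (37.5%) were called lower, beside 21.3% of all genes, and 1 higher (median -0.22). Xbp1, the response's transcription factor, was at 56.5, 24.8, 22.6 and 35.8 FPKM in low-numbered and 104, 59.7, 92.2 and 59.8 FPKM in high-numbered libraries (-1.08 ± 0.15). Pdia4, a disulfide isomerase of the endoplasmic reticulum, was at 27.3, 15.5, 11.4 and 17.7 FPKM in low-numbered and 62.05, 42.8, 59.1 and 38.7 FPKM in high-numbered libraries (-1.40 ± 0.16). Neither gene's classes overlapped. Of 18 heat shock and chaperonin genes 7 (38.9%) were called lower, beside 21.3% of all genes, and 0 higher (median -0.19), led by Chordc1 at -1.23 ± 0.17. After median-ratio scaling 3 of the 18 were called lower, beside 1600 of all 12061 genes. Among 22 glycolytic enzymes and transporters 3 (13.6%) were called lower, beside 21.3% of all genes, and 0 higher. These were Hk2 (-1.51 ± 0.24), the inducible hexokinase, Pfkl (-1.10 ± 0.17) and the lactate transporter Slc16a1 (-0.93 ± 0.19). Without X8 5 of the unfolded protein response genes and 2 of the heat shock genes were called lower, and without X6 5 and 4. The glycolytic median of -0.17 was -0.25 within KO_LPS, 0.21 within WT_LPS and -0.31 within WT_PBS.

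Structural ribosomal proteins stood on the other side from the ribosome builders. Of 44 cytosolic ribosomal protein genes, 30 (68.2%) were called higher in low-numbered libraries, beside 6.96% of all genes, and 0 lower (median 0.29). In 40 of the 44 the low-numbered libraries lay wholly above within every group, beside 14.9% of all genes. Rplp1, a stalk protein, was at 3468, 4534, 4445 and 4402 FPKM in low-numbered and 3028, 3299, 3151 and 3592 FPKM in high-numbered libraries (0.36 ± 0.08). X1 lay below X100, while the low-numbered libraries were higher inside each group. The ribosomal count depended on scaling, on the filter and on libraries: the median was 0.02 after quantile normalization with 0 called, 42 were called after median-ratio scaling, 1 without the filter on low values, without X5 or without X8 0 were called, without X2 7, without X6 8, without X40 14 and without X1 or X7 18. Of 43 oxidative phosphorylation subunits, 15 (34.9%) were called higher, beside 6.96% of all genes, and 0 lower (median 0.22). Cox4i1, a subunit of cytochrome oxidase, was at 778, 1001, 954 and 916 FPKM in low-numbered and 656, 690, 708 and 759 FPKM in high-numbered libraries (0.37 ± 0.08), without overlap. Quantile normalization gave 4 such calls, median-ratio scaling 26 and no filter 6, and leaving out a low- or high-numbered library gave 7 (X2), 5 (X5), 1 (X6), 6 (X40) and 0 (X8).

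Part of the p53 list was higher. Of 21 tested genes in the p53 list, 10 (47.6%) were called higher and 1 (4.76%) lower, beside 6.96% and 21.3% of all genes. The median was 0.55, and the within-group medians were 0.44 in KO_LPS, 0.44 in WT_LPS and 0.38 in WT_PBS. Sesn1, a sestrin that restrains mTORC1, was at 104, 103, 127 and 99.6 FPKM in low-numbered and 34.0, 38.5, 44.1 and 60.9 FPKM in high-numbered libraries (1.34 ± 0.16). Bbc3, the pro-apoptotic PUMA, was at 20.5, 15.05, 24.6 and 24.2 FPKM in low-numbered and 3.89, 9.55, 6.72 and 17.6 FPKM in high-numbered libraries (1.32 ± 0.31). Sesn1 separated the classes, and X2 lay below X100 for Bbc3. The single lower gene was Trp53, the gene of p53 itself and not a target, at 36.4, 23.4, 20.7 and 35.7 FPKM in low-numbered and 102, 81.6, 116 and 70.9 FPKM in high-numbered libraries (-1.55 ± 0.16), without overlap. The cell-cycle inhibitor Cdkn1a, named after its values were seen, was at 72.9, 68.7, 83.8 and 67.01 FPKM in low-numbered and 32.1, 39.4, 46.8 and 57.5 FPKM in high-numbered libraries (0.79 ± 0.15). Without X8, 3 of the list were called higher, without X1, X7 or X40 6, and without the filter on low values 5.

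FoxO targets and quiescence genes, a list chosen after values were seen, share Sesn1, Bbc3 and Trp53inp1 with the p53 list. Of 21 tested, 11 (52.4%) were called higher and 2 (9.52%) lower, beside 6.96% and 21.3% of all genes (median 0.60). The list median was 0.60 within KO_LPS, 0.57 within WT_LPS and 0.56 within WT_PBS. Txnip, an inhibitor of thioredoxin and of glucose uptake, was at 164, 127, 139.9 and 203 FPKM in low-numbered and 105, 103, 89.7 and 122 FPKM in high-numbered libraries (0.65 ± 0.13), without overlap. Among the 2 lower genes was Il7r (-0.88), the interleukin-7 receptor of precursor B cells. Cish, the feedback inhibitor induced by STAT5, was at 71.03, 50.3, 70.6 and 54.8 FPKM in low-numbered and 28.3, 22.3, 27.5 and 34.4 FPKM in high-numbered libraries (1.15 ± 0.15). The list of STAT5 and BCR-ABL1 outputs as a whole had 2 of 27 (7.41%) called higher and 3 (11.1%) lower, with a median of 0.00.

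**Figure D3:**
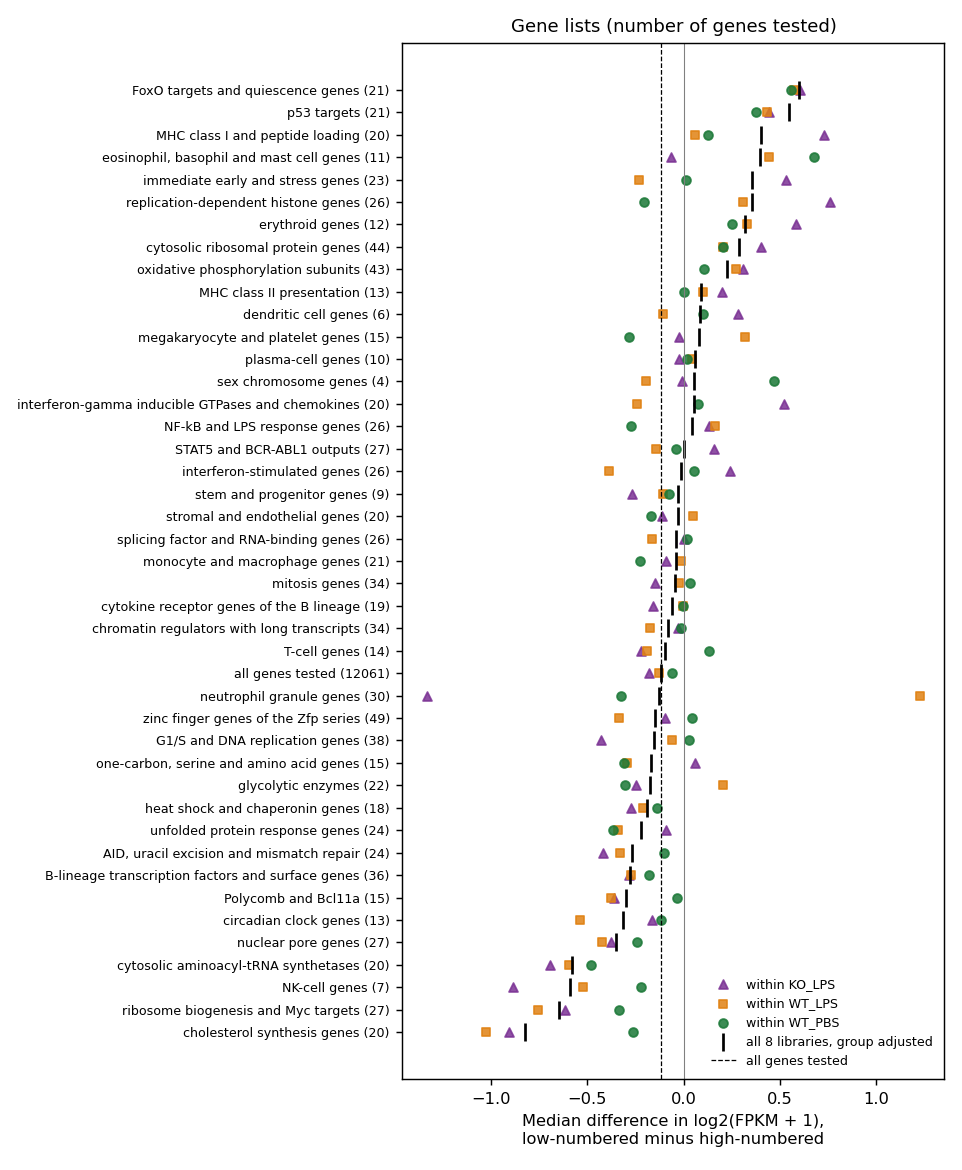
Median difference in log2(FPKM + 1), low-numbered minus high-numbered, for each gene list within KO_LPS, WT_LPS and WT_PBS and in the fit over all 8 libraries, beside the median of all genes tested (dashed). Cholesterol synthesis and ribosome biogenesis lie left of the dashed line in all 3 groups, and neutrophil genes lie at 1.23 in WT_LPS and -1.33 in KO_LPS.

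Several B-lineage regulators were lower. Of 36 B-lineage genes, 14 (38.9%) were called lower, beside 21.3% of all genes, and 1 higher (median -0.28). Myb, a transcription factor of lymphoid progenitors, was at 69.2, 33.1, 24.3 and 50.8 FPKM in low-numbered and 106, 106, 113 and 104 FPKM in high-numbered libraries (-1.24 ± 0.20), without overlap. Blk, a Src-family kinase of B cells, was at 6.70, 1.93, 2.21 and 4.03 FPKM in low-numbered and 11.4, 7.03, 14.4 and 13.98 FPKM in high-numbered libraries (-1.27 ± 0.17), without overlap. Rag1 and Rag2, the V(D)J recombinase, had differences of -0.82 and -1.18. Cd79a, in contrast, was at 877, 1086, 967 and 1061 FPKM in low-numbered and 844, 855, 901 and 941 FPKM in high-numbered libraries, and overlapped. Igll1, the surrogate light chain of the pre-B receptor and the 1 higher gene, was at 2245, 3188, 2693 and 2387 FPKM in low-numbered and 1644, 1692, 1525 and 1913 FPKM in high-numbered libraries (0.59 ± 0.11). Median-ratio scaling gave 8 called lower and 4 higher, no filter 8 and 1, and without X6 7 and without X8 4 were called lower.

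Single chromatin and repair genes were lower. Ezh2, the methyltransferase of Polycomb repressive complex 2, was at 67.2, 34.4, 16.1 and 42.3 FPKM in low-numbered and 116, 132, 134 and 109.6 FPKM in high-numbered libraries (-1.64 ± 0.29), without overlap. Of 15 Polycomb genes 5 were called lower, namely Bcl11a, Ezh2, Cbx8, Cbx2 and Ring1, and 1 higher (median -0.30). The 5 are 33.3% of the list, beside 21.3% of all genes called lower. Of 34 chromatin regulators with long transcripts 4 (11.8%) were called lower and 1 higher, with a median of -0.08, against -0.12 over all genes. Among 24 genes of AID-linked uracil excision and mismatch repair, 9 (37.5%) were called lower, beside 21.3% of all genes, and 1 higher (median -0.27). Lig3, a DNA ligase, had a difference of -0.96 ± 0.19. Ung, the uracil glycosylase that acts on AID lesions, was at 41.9, 39.7, 24.8 and 37.7 FPKM in low-numbered and 51.5, 57.7, 52.4 and 50.7 FPKM in high-numbered libraries (-0.55 ± 0.16), without overlap. The repair list had 5 called lower and 3 higher after median-ratio scaling, and 1 was called lower without X8 and 5 without X6 or X40. Over all 12061 genes, 1600 were called lower and 1606 higher after median-ratio scaling, and 530 lower without X8.

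Replication and mitosis genes differed less. G1/S and replication genes had 7 of 38 (18.4%) called lower and 1 (2.63%) higher, beside 21.3% and 6.96% of all genes. Their median of -0.15 was near that of all genes and turned to 0.01 after median-ratio scaling. Mitosis genes had 5 of 34 (14.7%) called lower and 1 (2.94%) higher, with a median of -0.04 that turned to 0.11 after median-ratio scaling. Replication-dependent histone genes, whose messages mostly lack a poly(A) tail, had 6 of 26 (23.1%) called higher and 1 (3.85%) lower. Their median of 0.36 was 0.76 within KO_LPS, 0.31 within WT_LPS and -0.20 within WT_PBS.

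Circadian clock genes, a list chosen after values were seen, lay on both sides. Of 13 tested, 3 (23.1%) were called higher and 6 (46.2%) lower, beside 6.96% and 21.3% of all genes. Per1, a repressor also induced by stress hormones, was at 24.3, 34.1, 39.0 and 44.1 FPKM in low-numbered and 15.9, 12.9, 18.7 and 14.8 FPKM in high-numbered libraries (1.17 ± 0.16). Arntl, which encodes the activator BMAL1, was at 10.6, 4.34, 6.60 and 9.61 FPKM in low-numbered and 19.3, 21.0, 21.4 and 19.7 FPKM in high-numbered libraries (-1.24 ± 0.20). Nr1d1, which encodes the repressor REV-ERB alpha, was at 3.20, 2.35, 3.52 and 2.86 FPKM in low-numbered and 10.4, 8.71, 9.78 and 5.92 FPKM in high-numbered libraries (-1.29 ± 0.19). Each of the 3 genes separated the classes without overlap.

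Globins led the markers of other marrow cells. Hbb-bs, an adult beta globin, was at 97.4, 385, 306 and 95.7 FPKM in low-numbered and 55.4, 28.8, 68.5 and 28.2 FPKM in high-numbered libraries (1.90 ± 0.46), and Hba-a1, Hba-a2 and Hbb-bt had differences of 2.13, 2.01 and 2.10. These genes have near-identical copies, and reads may be shared between them. The classes did not overlap, and the KO_LPS libraries X2 and X5 stood above all others. For Hbb-bt the class difference was 3.77 within KO_LPS, 1.58 within WT_LPS and 0.58 within WT_PBS. Of 12 tested erythroid genes 5 (41.7%) were called higher, beside 6.96% of all genes. These were the 4 globins and Alas2, the erythroid heme synthesis enzyme. The 1 lower gene was Tfrc (-0.82 ± 0.15), the transferrin receptor, which dividing cells of many kinds express. Robust moderation gave 0 higher calls, no filter 1 and leaving out X8 3. Summed over the 12 tested erythroid genes, FPKM were 515, 1358, 1124 and 503 in low-numbered and 383, 306, 386 and 326 in high-numbered libraries. The part of red cell RNA in other differences was not tested.

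In other lineages single genes differed. Prg2, the eosinophil major basic protein, was at 57.7, 35.8, 31.02 and 86.5 FPKM in low-numbered and 11.4, 18.9, 24.8 and 34.2 FPKM in high-numbered libraries (1.46 ± 0.22), and X5 and X2 lay on either side of X100. Of 11 tested eosinophil, basophil and mast cell genes 1 was called higher and 1 lower, 9.09% each, beside 6.96% and 21.3% of all genes. In this list 8 genes lay above 0 and 3 below. Its median was 0.39, and within groups -0.07 in KO_LPS, 0.44 in WT_LPS and 0.68 in WT_PBS. Klrb1c, the NK receptor NK1.1, was at 6.54, 2.57, 2.28 and 6.07 FPKM in low-numbered and 21.2, 10.99, 23.6 and 12.05 FPKM in high-numbered libraries (-1.57 ± 0.21), without overlap. Of 7 tested NK genes 3 (42.9%) were called lower, beside 21.3% of all genes, and 0 higher (median -0.59). Of 21 monocyte and macrophage genes 4 (19.0%) were called lower, near the 21.3% of all genes, and 0 higher. Their median was -0.04, against -0.12 over all genes, with 10 genes above 0 and 11 below. Cx3cr1, the fractalkine receptor of monocytes, was at 2.62, 0.37, 0.08 and 0.48 FPKM in low-numbered and 3.40, 2.11, 2.84 and 2.99 FPKM in high-numbered libraries (-1.08 ± 0.21), with X1 above X8. Dendritic and T-cell lists had 0 called in either direction, of 6 and 14 genes.

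Antigen presentation genes had their largest class difference within KO_LPS. Of 20 MHC class I and peptide loading genes, 7 (35.0%) were called higher and 1 (5.0%) lower, beside 6.96% and 21.3% of all genes. The median was 0.40, and the within-group median was 0.73 in KO_LPS, against 0.06 in WT_LPS and 0.13 in WT_PBS. Without X8, 2 of the 20 were called higher, and without the filter on low values 4. The difference between groups was not called for any of these genes (limma interaction, adjusted p over 0.05). Tap1, a subunit of the peptide transporter, was at 79.8, 206, 173 and 88.5 FPKM in low-numbered and 53.3, 88.01, 64.4 and 75.1 FPKM in high-numbered libraries (0.68 ± 0.14). The MHC class II chaperone Cd74 was at 33.2, 168, 118 and 52.9 FPKM in low-numbered and 28.5, 37.5, 43.8 and 30.05 FPKM in high-numbered libraries (0.94 ± 0.28). In both genes X2 and X5 were the highest libraries and X1 overlapped with high-numbered ones. Of 26 LPS and NF-kB response genes, 5 (19.2%) were called higher (Cxcl2, Saa3, Nfkbiz, Tnfaip3 and Nfkbia) and 2 (7.69%) lower (median 0.04). Saa3, an acute-phase protein induced by LPS, was at 64.7, 830.02, 1137 and 366 FPKM in low-numbered and 36.9, 148, 289 and 185 FPKM in high-numbered libraries (1.44 ± 0.34). Within each group, PBS included, its low-numbered libraries were higher. Interferon-stimulated genes showed no common shift, with 0 of 26 called higher and 4 (15.4%) lower (median -0.01). Their within-group medians were 0.24 in KO_LPS, -0.39 in WT_LPS and 0.05 in WT_PBS.

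Neutrophil genes had a class difference that varied between groups. Of 30 tested genes, 0 were called in the pooled class difference, beside 28.2% of all genes. Camp, the cathelicidin of neutrophil granules (chromosome 9, 109847377 to 109849456, GRCm38), was at 278 and 273 FPKM in X2 and X5, against 740.2 FPKM in X8, within KO_LPS. Within WT_LPS it was at 1507 FPKM in X6, against 395 and 409.8 FPKM in X40 and X100, and within WT_PBS at 653 FPKM in X1, against 807 FPKM in X7. Low-numbered libraries were thus lower than the high-numbered one in KO_LPS and WT_PBS and higher in WT_LPS.

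The class difference was tested between groups in a fit of 6 means with 2 residual degrees of freedom. In 4 of the 6 cells there was 1 library (X1, X6, X7 and X8), so the spread came from X2 against X5 and X40 against X100, and the single libraries are assumed to vary like these. The classes compared are those selected on these values. Between KO_LPS and WT_LPS it differed in 83 of 12061 genes (0.688%), with 11 higher (0.0912%) and 72 lower (0.597%) in KO_LPS. Of the 30 neutrophil genes, 23 were among those lower. Those higher included the globin Hbb-bt and 2 of the 23 immediate early and stress genes, of which 0 were lower. For Camp the class difference in KO_LPS was 3.33 ± 0.19 lower on the log2 scale than in WT_LPS (limma, adjusted p = 0.000312). For Ltf, the iron-binding lactoferrin of secondary granules, it was 3.72 ± 0.24 lower (limma, adjusted p = 0.000475), and for Mmp8, the neutrophil collagenase, 3.34 ± 0.33 lower (limma, adjusted p = 0.00369). Ltf was at 47.7 and 59.3 FPKM in X2 and X5, against 212 FPKM in X8, and at 399 FPKM in X6, against 122 and 116 FPKM in X40 and X100. The WT_LPS side rests on X6 as its only low-numbered library, and the test could not be made without it. Without X40, 27 genes and 14 neutrophil genes were called, and without X100 23 and 11. Without the filter on low values 7 genes were called, and 0 of them were neutrophil genes of the list.

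Between WT_LPS and WT_PBS the class difference differed in 6 genes (0.0497%). The 5 higher ones (0.0415%) were all neutrophil genes: Camp, Ltf, Ngp, S100a8 and S100a9. The 1 lower (0.00829%) was an unnamed locus. For Camp it was 2.21 ± 0.20 higher in WT_LPS (limma, adjusted p = 0.0179), and for S100a8 2.01 ± 0.23 higher (limma, adjusted p = 0.025). S100a8 was at 11250 FPKM in X6, against 3469 and 3561 FPKM in X40 and X100, and at 4899 FPKM in X1, against 6153 FPKM in X7. Without X2 or without X5, 0 genes were called, and without the filter on low values 0 of the 30 neutrophil genes were called. Between KO_LPS and WT_PBS 0 genes were called (0%), 616 had an unadjusted p under 0.05, and the smallest adjusted p was 0.0568 (limma). Without X2, 7 genes were called, and without X100 8. C1qb, a complement gene of macrophages, had a class difference 2.28 ± 0.33 higher in KO_LPS than in WT_PBS (limma, adjusted p = 0.116). It was at 93.1 and 76.3 FPKM in X2 and X5, against 24.1 FPKM in X8, and at 16.3 FPKM in X1, against 23.8 FPKM in X7.

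**Figure D4:**
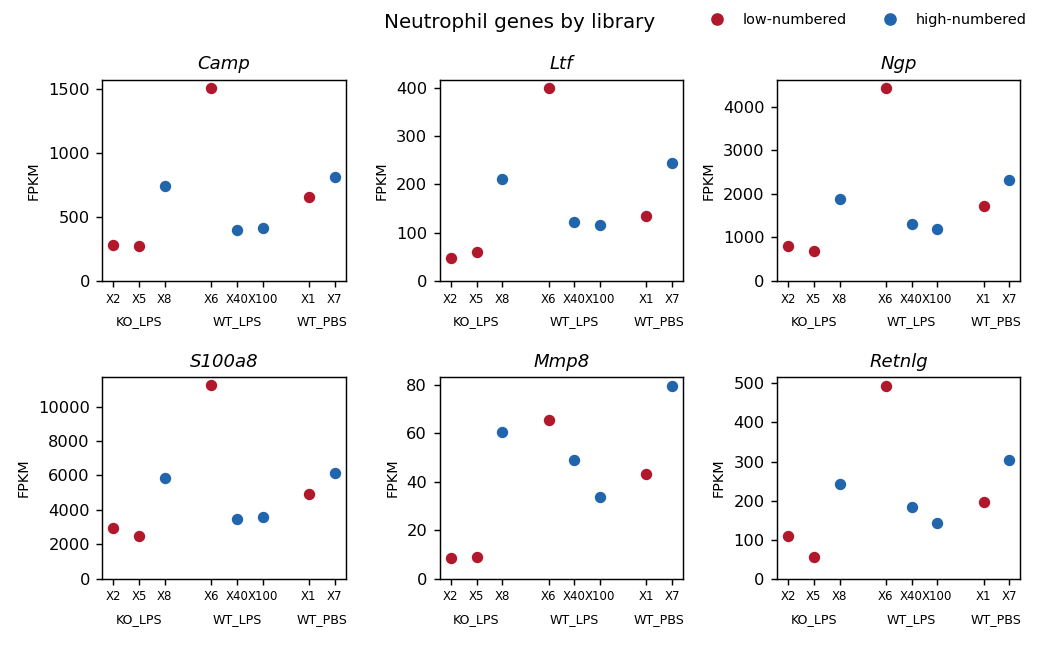
FPKM of 6 neutrophil genes in each library by group, low-numbered libraries in red left of high-numbered ones in blue, on linear axes from 0. X6 stands above X40 and X100 in WT_LPS, while X2 and X5 stand below X8 in KO_LPS.

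The genotype comparison asks how Aid KO differed from Aid WT marrow under LPS when the number class is held constant. With the class in the fit, 33 of 12061 genes (0.274%) differed between KO_LPS and WT_LPS, 17 higher (0.141%) and 16 lower (0.133%). The class entered as a covariate was itself selected on these values, so the fit without it stands beside each result. Without the class 10 differed (0.0829%), 7 higher (0.058%) and 3 lower (0.0249%), and all 10 were among the 33. In the 2 fits 884 and 686 genes had an unadjusted p under 0.05 (limma). In all 33 genes the 3 KO_LPS libraries lay on one side of the 3 WT_LPS libraries, which held for 9.14% of all tested genes. The 33 were selected by the difference between these same libraries, so their separation only describes them and adds no support.

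Genes induced by interferon-gamma were higher in KO_LPS on both fits. Of 20 interferon-gamma inducible GTPases and chemokines, 11 were called higher with the class and 6 without it, with medians of 1.50 and 1.53, and 0 lower. Iigp1, an immunity-related GTPase, was at 38.8, 34.6 and 24.4 FPKM in X2, X5 and X8 of KO_LPS, against 2.13, 4.73 and 3.59 FPKM in X6, X40 and X100 of WT_LPS. Its difference was 2.92 ± 0.26 with the class (limma, adjusted p = 0.00373) and 2.93 ± 0.27 without it (limma, adjusted p = 0.0135). Gbp2, a guanylate-binding protein, was at 130.2, 101 and 50.98 FPKM in KO_LPS, against 13.6, 15.8 and 12.9 FPKM in WT_LPS. Its difference was 2.39 ± 0.24 with the class (limma, adjusted p = 0.00399) and 2.56 ± 0.31 without it (limma, adjusted p = 0.0386). In Gbp2 and in Cxcl9, at 10.97, 13.4 and 5.47 FPKM in KO_LPS against 0.90, 0.96 and 0.91 FPKM in WT_LPS, the low-numbered KO_LPS libraries X2 and X5 stood above the high-numbered X8. Gbp6 and Gbp4 were called with the class only (limma, adjusted p = 0.0176 and 0.0151, against 0.0787 for each without it).

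Among genes lower in KO_LPS, Aqp1, a water channel of endothelium and red cells, was at 1.21, 1.56 and 1.42 FPKM in KO_LPS, against 5.26, 16.3 and 10.5 FPKM in WT_LPS. Its difference was -2.04 ± 0.30 with the class (limma, adjusted p = 0.0233) and -2.17 ± 0.34 without it (limma, adjusted p = 0.0865). Nr4a1, an orphan nuclear receptor and immediate early gene, and Ikzf3, which encodes the B-cell factor Aiolos, were chosen after their values were seen. Nr4a1 was at 10.3, 6.64 and 5.71 FPKM in KO_LPS, against 23.6, 17.9 and 12.3 FPKM in WT_LPS, and within each group the lower-numbered libraries were higher. Its difference was -1.34 ± 0.20 with the class (limma, adjusted p = 0.0291) and -1.14 ± 0.31 without it (limma, adjusted p = 0.539). Ikzf3 was at 0.73, 1.10 and 2.12 FPKM in KO_LPS, against 3.06, 7.68 and 7.34 FPKM in WT_LPS, with the opposite class difference in both groups. Its difference was -1.32 ± 0.19 with the class (limma, adjusted p = 0.0233) and -1.57 ± 0.35 without it (limma, adjusted p = 0.312). Without X8 218 genes were called, 31 of the 33 among them, and the fewest, 7, were called without X2. Leaving out X5 gave 10, X40 13, X1 or X7 15 and X6 16 genes. Of the interferon-gamma list, 4 were called without X2 or without X5, 6 without X6 and 11 without X8, and 1 was called without the filter on low values.

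**Figure D5:**
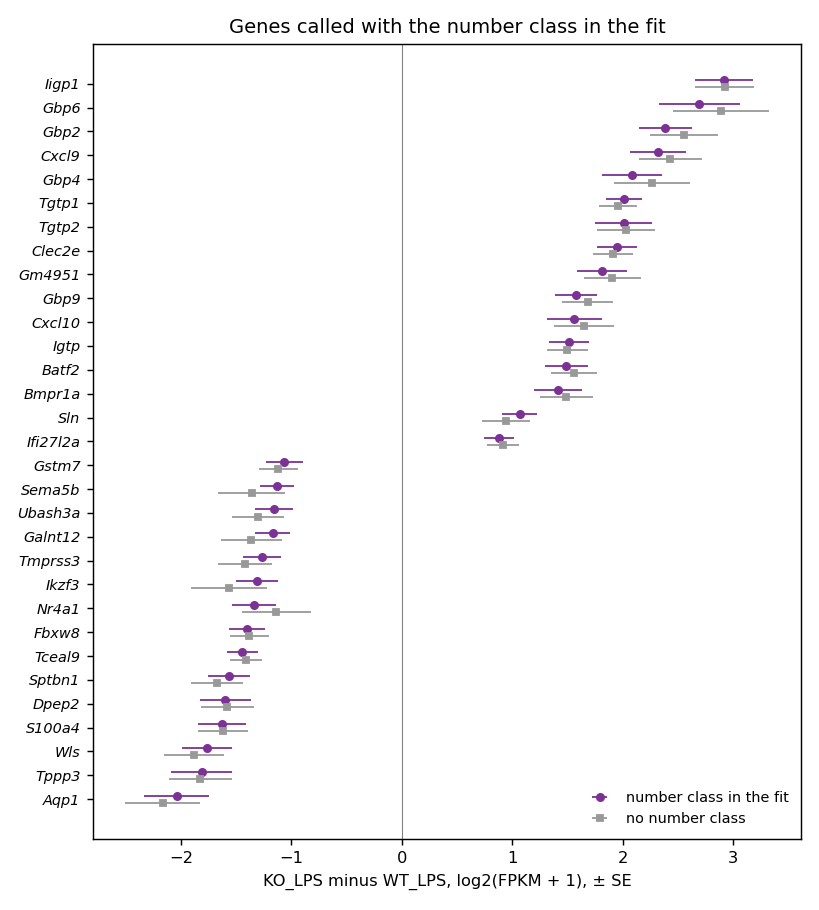
KO_LPS minus WT_LPS difference in log2(FPKM + 1), with its standard error, for the named genes called with the number class in the fit, beside the same difference without the class. All differences keep their sign without the class.

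The treatment comparison asks the same of LPS against PBS with Aid WT cells. With the class in the fit 0 genes differed between WT_LPS and WT_PBS (0%), against 2 when X7 or X8 was left out, 934 had an unadjusted p under 0.05, and the smallest adjusted p was 0.614 (limma). Without the class 0 differed too, 142 had an unadjusted p under 0.05, and the smallest adjusted p was 0.9998 (limma). Saa3 had the smallest p of named genes and was at 366, 289 and 185 FPKM in X6, X40 and X100 of WT_LPS, against 64.7 and 36.9 FPKM in X1 and X7 of WT_PBS. Its difference was 2.68 ± 0.43 with the class and 2.44 ± 0.76 without it, and neither passed the threshold (limma, adjusted p = 0.614 and 0.9998). Tubb2b, a beta-tubulin, differed by 1.02 ± 0.17 with the class and did not pass (limma, adjusted p = 0.614).

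The class difference was related weakly to transcript properties. In 5 equal classes of transcript length, from shortest to longest, its median was -0.02, -0.12, -0.17, -0.17 and -0.15. In 5 equal classes of GC content it was flat over all libraries, between -0.15 and -0.11. Within groups the lowest and the highest GC class had medians of -0.20 and -0.17 in KO_LPS, -0.24 and -0.05 in WT_LPS, and 0.07 and -0.16 in WT_PBS, so that the direction with GC differed between WT_LPS and WT_PBS. Genes with over 10 exons had a median of -0.19, single-exon genes -0.06, and the 592 tested loci without a gene name 0.11. Unnamed loci held 3.95% to 4.19% of FPKM in low-numbered and 3.60% to 3.85% in high-numbered libraries.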

How the data were processed

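Libraries were prepared from total RNA of bone marrow with a SMARTer mRNA-Seq kit, per the labels' protocols. In the table as deposited stand FPKM values to 2 decimals, per the file headers, for 18020 genes and unnamed loci in 8 libraries. Not given in the sources used here are aligner and quantifier, and the builds GRCm38 and mm10 come from the submitters' processing notes. The depth is unknown, so no counting interval was computed. RefSeq GRCm38.p6 supplied coordinates and promoters for 16798 matched rows.

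The 12061 genes whose mean reached 0.5 FPKM were analysed as log2(FPKM + 1), so that fold changes of low genes are understated. The model had group and number class as terms and was fitted with limma 3.58.1 in R 4.3.3 with trended moderation and Benjamini-Hochberg adjustment over all 12061 genes, at a threshold of 0.05, two-sided. Errors marked ± on log2 differences are standard errors. A fit of 6 means (group by class) gave the tests between groups. The members and gene lists were chosen with earlier results of these data known. The naming rule took the 12 highest and 12 lowest class differences of at least 2 FPKM that separated within every group, up to 3 members per list, up to 6 per contrast (3 by p where none passed), and the defining markers. Some genes the rule names are not reported here. Genes outside it were chosen after their values were seen: Alas2, Arntl, Cbx2, Cdkn1a, Fbl, Hmgcs1, Iars, Idi1, Igll1, Ikzf3, Il7r, Insig1, Lss, Nfkbia, Nop2, Npm1, Nr1d1, Nr4a1, Per1, Rag1, Ring1, Tfrc, Tnfaip3, Trp53inp1, Txnip and Ung. Alternatives varied the pseudocount, the filter, the scaling, the moderation, the library weights, the covariates, GC and length trends, and each library in turn.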

Additional observations from a re-analysis of the deposited data

Results flagged for a closer look

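In 5 named genes 1 library stood far from the other 3 of its number class. Its gap to the nearest library passed the 95% limit of Dixon's test for 4 values, as chance does in about 1 of 20 sets. The 4 libraries of a class come from 3 groups and are not replicates, and the part of the group was not tested. Nor were the 5 genes weighed against the number of genes screened. Cxcl2 was at 56.03 FPKM in X6 among low-numbered libraries. Prrg4 was at 20.3 FPKM in X5 and Pdf at 0.71 FPKM in X2, where the other low-numbered libraries were listed at 0. Nfe2l2 was at 23.64 FPKM in X100 among high-numbered libraries, and Gemin4 was at 6.32 FPKM in X1 among low-numbered ones.

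The low-minus-high difference of neutrophil genes varied between groups. In KO_LPS minus WT_LPS it was -3.72 for Ltf, -3.38 for Itgb2l and -3.34 for Stfa1 on the log2 scale. It was -3.34 for Mmp8, -3.33 for Camp and -3.23 for Retnlg. In WT_LPS minus WT_PBS it was 2.60 for Ltf, 2.24 for Ngp, 2.21 for Camp, 2.01 for S100a8 and 1.93 for S100a9. Both sets contain X6, whose neutrophil genes summed to 33671 FPKM, against 7143 to 19169 FPKM in the other 7 libraries. The classes compared were selected on these values, and the fit had 2 residual degrees of freedom. Most of its cells of group by class held no replicate library, so only sizes are given here. The neutrophil calls in these tests were lost without the filter on low values.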

How the results depend on the processing

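No paired analysis was possible because each title number occurs once. Of the 3404 genes called between number classes, the count was 880 with the rank of the title number, 846 with WT_PBS and WT_LPS only, 1631 with WT_PBS and KO_LPS only, and 670 (without X8) to 3021 when 1 library was left out, and 655 of the 670 were among the 3404. For KO_LPS against WT_LPS the 33 genes became 3 without a filter, 16 at a mean of at least 5 FPKM, 52 with library weights, 10 without the class and 7 to 218 leaving out 1 library. For WT_LPS against WT_PBS the count was 0 to 2 leaving out 1 library. The 83 genes whose class difference differed between KO_LPS and WT_LPS became 7 without a filter, 140 after median-ratio scaling, 42 after quantile normalization, 143 with robust moderation and 23 to 109 leaving out 1 library. Between KO_LPS and WT_PBS the 0 became 1 at a pseudocount of 0.1, 3 at a pseudocount of 5, 11 without a filter, 7 after median-ratio scaling, 9 with robust moderation and 0 to 8 leaving out 1 library. Between WT_LPS and WT_PBS the 6 became 13 at a pseudocount of 5, 17 without a filter, 14 with robust moderation and 0 to 8 leaving out 1 library. The cause was not tested. A library that is the only one of its class in a group could not be left out of the tests between groups that use it. No value changed sign among the named genes, where each gene is counted once per alternative. Of the class differences, 500 kept their side of the threshold, 23 lost it and 1 gained it. Of the KO_LPS minus WT_LPS differences, 82 kept it and 30 lost it. For the class difference between KO_LPS and WT_LPS 62 kept it and 16 lost it, and between WT_LPS and WT_PBS 40 kept it and 20 lost it. With scaling, 14 of 42 list medians changed sign, and 5 did relative to the median of all genes (T-cell, neutrophil, one-carbon, splicing factor and zinc finger genes). Depth is unknown and limits the low genes.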
